A study of Mus musculus with 16 samples.

Results

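The Hes and Hey genes of the mouse encode basic helix-loop-helix proteins with an Orange domain, most of which repress transcription. Expression of the family was followed in embryonic stem cells (ES) and in embryoid bodies (EBs), the cell aggregates in which ES cells differentiate, with and without a functional Taf4a gene. Taf4 is a subunit of TFIID, the complex that carries the TATA-binding protein to promoters. The members were taken by gene name and are Hes1, Hes3, Hes5, Hes6, Hes7, Hey1, Hey2 and Heyl, 8 of the 27807 genes measured. Each name matched 1 identifier, and all 8 genes reached the mean of 10 normalised read counts over the libraries that was needed for a test. For Hes3, Hes5 and Heyl this mean was reached through the WT groups at late stages, where they are highest, so that their place among the tested genes is not independent of the differences given for them.

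Hes1 and Hes5 are the best known targets of the Notch pathway in the developing nervous system. When a Delta or Jagged ligand on one cell binds a Notch receptor on its neighbour, the receptor is cleaved, and its intracellular part enters the nucleus and activates these genes together with the DNA-binding protein Rbpj. Hes1 and Hes5 then recruit Groucho co-repressors and hold down proneural genes such as Neurog2, which keeps neural progenitors from turning into neurons too early. Hes3 marks early neuroepithelium, Hes6 opposes Hes1 and is itself switched on by proneural proteins, Hes7 belongs to the clock of somite formation, and Hey1, Hey2 and Heyl are Notch targets best known from the heart and vessels.

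The series holds 16 libraries in 8 groups of 2. Libraries titled WT carry the genotype Taf4+/+, and those titled Taf4a-/- carry the genotype Taf4-/- and are called KO here. The ES lines, a pair of independent lines per genotype, were derived from blastocysts of crosses between heterozygous mice, and the null allele lacks a pair of internal exons in every cell and at every stage. All lines were grown on feeder fibroblasts with LIF. Libraries were made from ES cells, from EBs just before retinoic acid (EB4), from EBs on its opening day (EB5) and from EBs late in the treatment (EB8), which is the stage labelled as neural precursor cells in both genotypes. Both genotypes received retinoic acid in the same way.

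Depth ran from 22442118 to 40711826 reads per library, and the ES libraries (at least 32631020 reads) were all deeper than the EB libraries (at most 27685306), so that stage and depth cannot be told apart between ES and EB4. Transcripts of Taf4a were not lower in the KO libraries. Its normalised read counts at EB8 were 1590.9 and 1939.7 in WT against 2341.2 and 1972.8 in KO (log2 difference 0.29, limma adjusted p = 0.194), and at the other stages the KO values also lay above the WT values. Counts over the whole gene take in the exons that the null allele keeps and do not check the deletion. The label of KO EB8 went against its markers. The 5 neural progenitor markers measured (Pax6, Nes, Sox3, Msi1 and Fabp7) summed to 29499.9 and 26516 normalised read counts in WT EB8 and to 4974.6 and 4903.3 in KO EB8, 4 of the 5 being lower. The 4 neuronal markers summed to 15764.3 and 21416.9 in WT EB8 and to 1284 and 708.4 in KO EB8, and all 4 were lower, whereas the 6 markers of pluripotent cells summed to 1355.7 and 1575.5 in WT EB8 and to 19609.4 and 21966.3 in KO EB8, 5 of the 6 being higher. KO EB8 libraries are therefore named by their stage and not as neural precursors.

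Promoter sequence was examined for the letters that Rbpj recognises (GTGGGAA) and for TATA elements, since Rbpj relays the Notch signal and Taf4 belongs to the complex that holds the TATA-binding protein. The RefSeq promoter table (GRCm38.p6) held 4 of the 8 members, namely Hes5, Hes6, Hes7 and Hey2, and each window was found once, without a mismatch, in the NCBI37 genome, from which the coordinates are given. The bases upstream of the start are shown 5′ to 3′ on the strand of the gene, without bases that the annotation places in an exon. Capitals mark the Rbpj letters, which read TTCCCAC where they lie on the opposite strand. In the Hes6 window capitals mark TATAAA, and in the Hes5 window they also mark the element TATATA.
Hes5, chr4:154334782-154335031, plus strand: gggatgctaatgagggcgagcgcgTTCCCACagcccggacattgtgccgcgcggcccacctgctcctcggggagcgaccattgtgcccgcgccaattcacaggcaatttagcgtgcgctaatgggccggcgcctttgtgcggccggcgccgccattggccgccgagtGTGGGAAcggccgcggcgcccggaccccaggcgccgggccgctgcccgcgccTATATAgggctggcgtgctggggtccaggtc
Hes6, chr1:93309800-93310049, minus strand: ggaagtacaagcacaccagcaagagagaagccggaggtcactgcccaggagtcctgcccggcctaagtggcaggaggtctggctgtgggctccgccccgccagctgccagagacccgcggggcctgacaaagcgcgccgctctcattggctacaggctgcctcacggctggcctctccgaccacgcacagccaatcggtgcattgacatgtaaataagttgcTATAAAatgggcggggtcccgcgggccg
Hes7, chr11:68933705-68933905, plus strand: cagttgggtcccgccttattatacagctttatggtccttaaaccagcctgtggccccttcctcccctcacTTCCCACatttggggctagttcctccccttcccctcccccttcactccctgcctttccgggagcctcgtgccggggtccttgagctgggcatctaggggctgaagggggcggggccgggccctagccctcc
Hey2, chr10:30562608-30562839, minus strand: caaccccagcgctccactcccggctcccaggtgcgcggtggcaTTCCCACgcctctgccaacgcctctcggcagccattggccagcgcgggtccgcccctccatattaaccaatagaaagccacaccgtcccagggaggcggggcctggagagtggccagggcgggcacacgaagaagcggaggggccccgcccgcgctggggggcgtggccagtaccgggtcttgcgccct
The windows of Hes5, Hes7 and Hey2 end just before the annotated gene, and the Hes6 window belongs to the inner of 2 starts and lies in an intron of the NCBI37 gene model. Distances count from the RefSeq start, before which the Hes7 and Hey2 windows stop 49 and 18 bases short because the gene model places an exon there. The Hes5 window held GTGGGAA at 2 places, which began 226 and 83 bases upstream of the start, and TATATA 31 bases upstream. Of the 32536 promoter windows in the table, 5.43% held GTGGGAA on either strand, 0.16% held it at 2 or more places and 5.01% held TATATA. The Hes7 and Hey2 windows each held GTGGGAA at 1 place, 180 and 207 bases upstream. Neither of the 2 Hes6 windows held it, and the Hes6 window shown held TATAAA 28 bases upstream, as did 12.3% of all windows somewhere on either strand. The outer Hes6 window, which is not shown, held neither TATAAA nor TATATA, and neither did the windows of Hes7 and Hey2. These matches describe letters in a window and not binding.

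Before the genotypes are compared, the make-up of the family is given per kb of exon, the scale on which genes of different length can be set side by side. The summed level of the 8 genes was 1013 ± 466 normalised read counts per kb (SD, n = 2) in WT ES, 1091 ± 323 in WT EB4 against 1090 ± 89.9 in WT EB5, and reached 2325 ± 366 in WT EB8. In KO it was 821 ± 213 in ES, 786 ± 87.7 in EB4, 788 ± 69.8 in EB5 and 625 ± 19.9 in EB8. Hes1, Hes6 and Hey1 together made up 89.3% to 98.2% of this sum in every library except those of WT EB8, where they made up 66.2% and 65.9%. The difference in make-up lay in Hes5, which held 30.0% of the family level in WT EB8 against 1.17% in KO EB8. In WT EB8 the order of the mean levels per kb was Hes5 (701 ± 151), Hes6 (653 ± 3.22), Hes1 (612 ± 158), Hey1 (270 ± 82.8), Hes3 (29.2 ± 31.8), Heyl (29.2 ± 6.73), Hey2 (20.7 ± 3.39) and Hes7 (9.05 ± 6.23), and the leading 3 differed by less than the spread between the libraries.

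**Figure D1:**
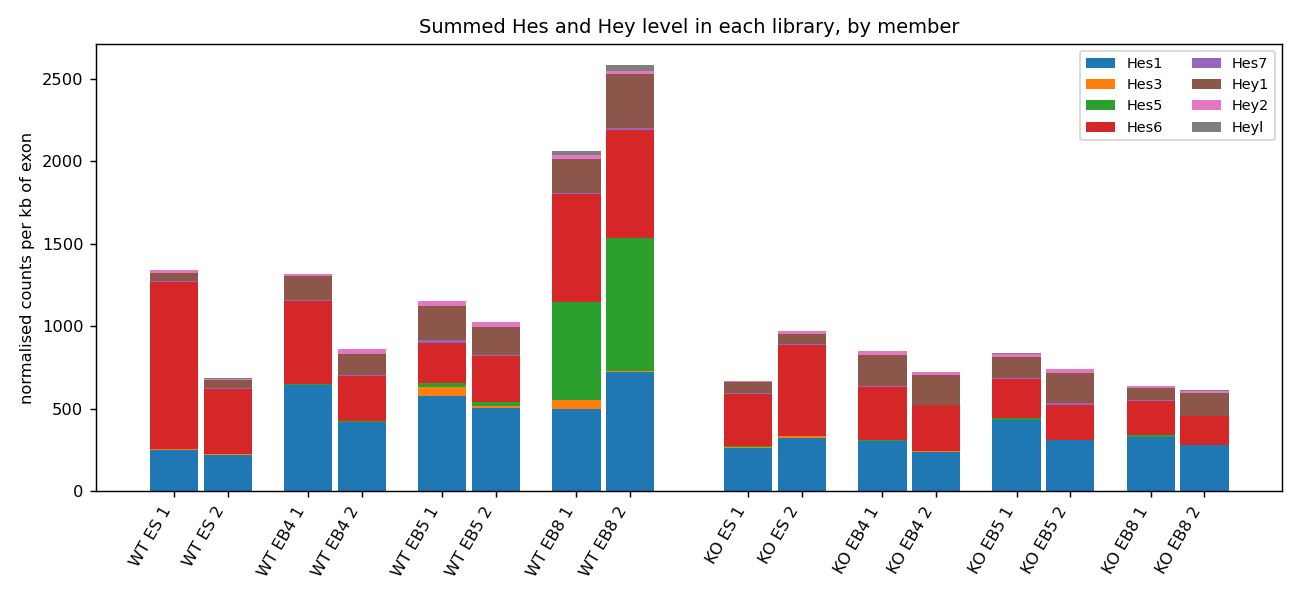
Level of the 8 genes in each of the 16 libraries, as normalised read counts per kb of exon stacked by member on an axis that starts at 0. The WT EB8 bars are the tallest (2066 and 2584) and are the only ones with a broad Hes5 segment.

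The comparison of KO with WT at EB8 asks which of these genes depend on genotype at the end of the retinoic acid treatment. Lower levels in KO passed the test for 6 of the 8 members, namely Hes1, Hes3, Hes5, Hes6, Hey1 and Heyl, and no member was higher (limma with Benjamini-Hochberg adjustment over 16124 genes). Of all genes tested, 12.5% were lower and 22.9% were called in either direction. The median log2 change was -1.60 over the 8 members, also with Hes3 at its bound, and -0.03 over all genes tested. The KO values lay below both WT values for 7 of the 8 members, an arrangement held by 33.5% of all genes. In libraries made from whole EBs, fewer cells of a type and less RNA per cell cannot be told apart.

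**Figure D2:**
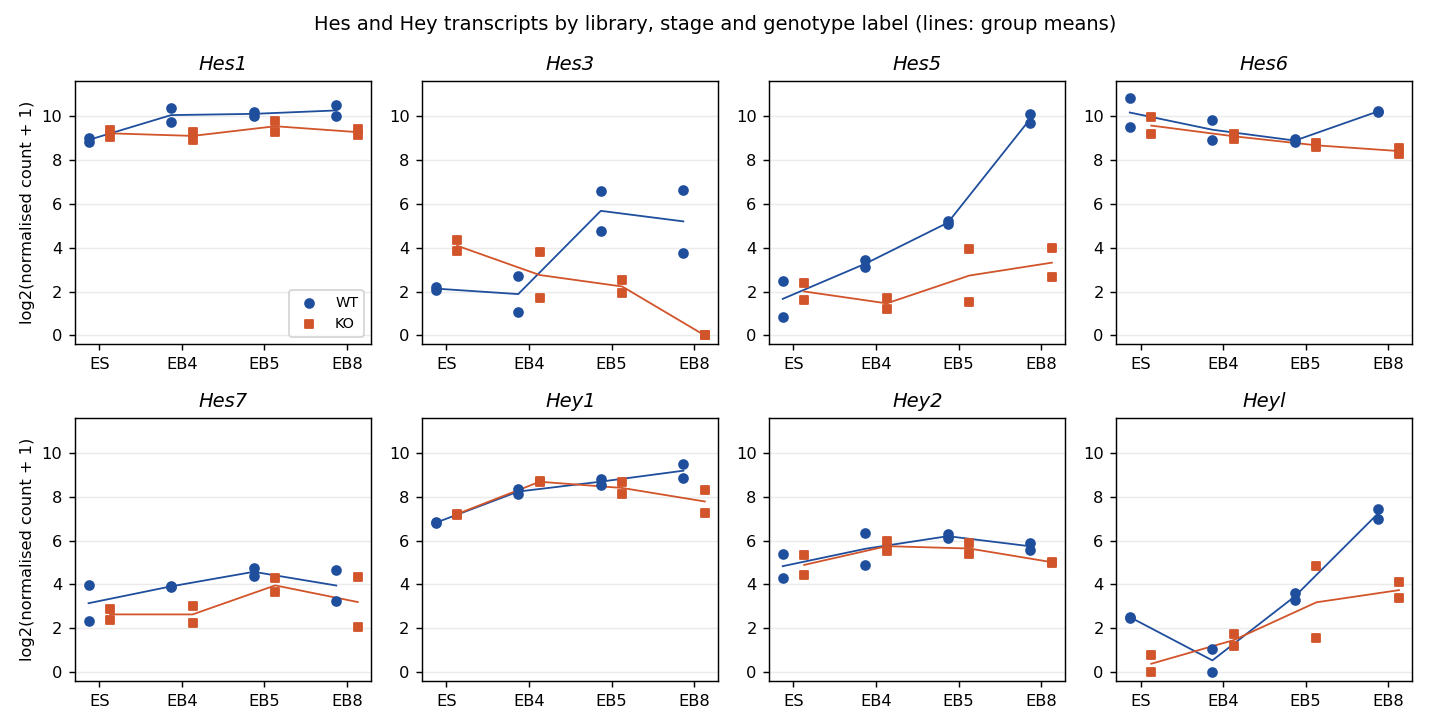
Expression of each gene as log2(normalised count + 1) in WT (blue circles) and KO libraries (orange squares) at the 4 stages, with 2 libraries per group and lines through the group means. Hes5 and Heyl climb in WT at EB8 and stay low in KO, and Hes3 is at 0 in both KO EB8 libraries.

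Hes5, the Notch target most closely tied to neural progenitors (ENSMUSG00000048001, chr4:154335032-154336480), had 810.7 and 1101.1 normalised read counts in WT EB8 against 14.8 and 5.3 in KO EB8. The groups were far apart, with a KO mean that was 0.0105 times the WT mean (log2 change -6.57, SE 0.81, limma adjusted p = 0.000239). Without KO replicate 1 or 2 the log2 change was -7.22 or -5.91, and the call was kept. An antisense transcript (RP24-89N4.5) shares exon sequence with Hes5, and the library kit does not mark strand, so that reads of the pair cannot be told apart. The promoter of Hes5 is the one shown above with GTGGGAA at 2 places. Hes6, also lower in KO EB8, held these letters in neither of its windows, and Hes1, Hes3, Hey1 and Heyl had no window. A link between the letters and the genotype differences was not tested.

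Hes1, which holds progenitors of many tissues in an undifferentiated state (ENSMUSG00000022528, chr16:30064470-30067882), had 1017.6 and 1473.8 normalised read counts in WT EB8 against 670 and 566.7 in KO EB8. The KO mean was 0.496 times the WT mean, and the groups did not overlap (log2 change -0.99, SE 0.27, limma adjusted p = 0.0190). This call rested on few libraries. It was lost without WT replicate 2 (adjusted p = 0.159), KO replicate 1 (0.0514) or KO replicate 2 (0.109).

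Hes6, the member that opposes Hes1 (ENSMUSG00000067071, chr1:93308060-93310615), had 1185.6 and 1177.4 normalised read counts in WT EB8 against 370.3 and 308.9 in KO EB8. The libraries of each group lay close together, with a KO mean 0.287 times that of WT (log2 change -1.80, SE 0.40, limma adjusted p = 0.00746). Hes3, the neuroepithelial member (ENSMUSG00000028946, chr4:151660081-151665771), had 97.7 and 12.7 normalised read counts in WT EB8 against 0 in both KO EB8 libraries. Against a floor of 3 reads per library, the WT mean of Hes3 was at least 17.4-fold above KO. That mean rested mostly on WT replicate 1, with 93 reads against 12 in replicate 2, for which the bound is much smaller. The limma adjusted p was 0.00339, with a log2 change that moved from -3.78 without WT replicate 1 to -6.62 without WT replicate 2, while the call was kept.

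Among the Hey genes, Hey1 (ENSMUSG00000040289, chr3:8663362-8667039) had 466.3 and 724.2 normalised read counts in WT EB8 against 154 and 311.1 in KO EB8. The groups did not overlap, and the KO mean was 0.391 times the WT mean (log2 change -1.40, SE 0.34, limma adjusted p = 0.0104). The call was lost without WT replicate 2 (adjusted p = 0.101) or KO replicate 1 (0.103), and in a fit of the EB8 libraries alone (0.0689). Heyl (ENSMUSG00000032744, chr4:122910799-122927118) had 125 and 173.6 normalised read counts in WT EB8 against 9.5 and 16 in KO EB8. Its KO mean was 0.0853 times the WT mean (log2 change -3.47, SE 0.90, limma adjusted p = 0.0157), and the call was lost without either WT library (adjusted p = 0.0525 and 0.0906) or without KO replicate 1 (0.0942).

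Hey2 and Hes7 did not pass the test at EB8. Hey2 (ENSMUSG00000019789, chr10:30552165-30562607) had 58.8 and 46.6 normalised read counts in WT against 31.7 and 30.9 in KO (log2 change -0.73, SE 0.56, limma adjusted p = 0.378). Hes7 (ENSMUSG00000023781, chr11:68933906-68937557) had 8.4 and 24.4 normalised read counts in WT against 19 and 3.2 in KO, values that overlapped (log2 change -0.75, SE 0.82, limma adjusted p = 0.547). The long non-coding RNA 9130213A22Rik overlaps exons of Hes7 on the opposite strand and could not be separated from it. For chromosome 11, where Hes7 lies, a level was taken as the median log2 deviation of its genes from their means over the 16 libraries. Each library was centred on its median over all genes tested. This level was 0.18 to 0.27 in the KO replicate 1 libraries and -0.13 to 0.03 in all others, and its part in the Hes7 values was not tested.

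The sources that could give these transcripts outside neural cells were read from markers. The 5 endothelial markers summed to 940.9 and 915.8 normalised read counts in WT EB8 and to 2890.9 and 3217 in KO EB8. Pecam1 and Tek were higher in KO, and Cdh5, Kdr and Esam were not called. The 4 heart muscle markers summed to 81.9 and 38.1 in WT EB8 and to 111.8 and 156.6 in KO EB8, none of the 3 tested being called. The endothelial sum was already 1806.7 and 7007.3 in WT ES cells, and Pecam1 and Tek fell from ES to EB4 in WT (log2 change -2.47 and -2.35, limma adjusted p = 0.0278 and 0.00104), so that this sum does not measure vessels alone. The part of either cell type in the Hey1 and Heyl values was not tested. For the presomitic mesoderm, the site of the Hes7 clock, the 5 markers summed to 445.2 and 1122.3 in WT EB8 and to 723.8 and 1519 in KO EB8, almost all of it Meox1. Of the 3 presomitic markers tested, Mesp2 was called higher in KO EB8 and the others were not called. Msgn1 was at 0 in both WT EB8 libraries and Ripply2 in both KO EB8 libraries. The 6 markers of feeder fibroblasts overlapped between the genotypes at EB8 only (2019.4 and 2657.5 in WT EB8, 896.8 and 3114.8 in KO EB8). Earlier, both KO sums lay below both WT sums. KO libraries summed to 206.7 and 478.1 (ES), 461.5 and 478.6 (EB4), and 1008.8 and 962.9 (EB5). The smaller WT sum was 1042.1, 842.8 and 1232.1 at these stages. In ES limma called 0 of the 6 and DESeq2 3, with a median log2 change of -2.16. Both called 0 at EB4 and EB5. The part of feeder cells in the earlier genotype differences was not tested. The 4 endoderm markers were lower in KO EB8 (1304.2 and 1082.1 against 245.8 and 345.1), with Foxa2 and Sox17 called.

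At the earlier stages no member passed the test between genotypes. In ES cells 0 of the 8 were called by limma, edgeR or DESeq2 (1 at an unadjusted p under 0.05). Of all genes limma called 0% and DESeq2 2.97%, and 11.4% had an unadjusted p under 0.05. At EB4 limma and edgeR called 0 members and DESeq2 called 1 (Hes1), with 2 at an unadjusted p under 0.05. Of all genes limma called 6.12% and DESeq2 13.4%, and 22.7% had an unadjusted p under 0.05. At EB5 limma and edgeR called 0 members and DESeq2 called 2 (Hes3 and Hes5), with 2 at an unadjusted p under 0.05. The shares of all genes were 4.34% with limma, 10.7% with DESeq2 and 20.7% at an unadjusted p under 0.05, and nothing particular to the members is read from counts of at most 2. The median log2 change of the members was 0.18 in ES, -0.09 at EB4 and -0.56 at EB5.

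The values at these stages show where the genotypes came closest to the threshold. Hes1 had 1305.3 and 855.7 normalised read counts in WT EB4 against 620.3 and 482.4 in KO EB4, without overlap (log2 change -0.95, limma adjusted p = 0.0562, 0.0104 to 0.207 over the alternatives that keep all libraries). In ES it had been 512.4 and 452.1 in WT against 535.4 and 657.5 in KO, and at EB5 it was 1180 and 1023.5 in WT against 877.9 and 628.4 in KO. WT Hes1 thus stood above KO Hes1 at EB4 and EB5 and below it in ES, and none of these stages passed the test.

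Hes3 had 95 and 26.4 normalised read counts in WT EB5 against 2.8 and 4.8 in KO EB5 (log2 difference -3.43, limma adjusted p = 0.0751, 0.0211 to 0.116 over the alternatives that keep all libraries). In ES cells its values ran the other way, with 3.6 and 3.2 in WT against 13.3 and 19.3 in KO (log2 difference 1.95, limma adjusted p = 0.495). Hes5 had 35.8 and 32.9 normalised read counts in WT EB5 against 14.2 and 1.9 in KO EB5 (log2 difference -2.40, limma adjusted p = 0.114). The KO EB5 libraries differed widely, and without replicate 1 the adjusted p for Hes5 was 0.0426. Hes5 was low in ES, with 4.6 and 0.8 normalised read counts for WT against 4.2 and 2.1 for KO, and at EB4, with 7.7 and 9.7 against 2.3 and 1.3.

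Hes6 showed its widest spread in ES cells, with 1827.6 and 719.2 normalised read counts in WT against 576.1 and 998.5 in KO, so that the groups overlapped. Its EB4 libraries read 907.5 and 487.9 for WT against 585.3 and 499 for KO, and its EB5 libraries 444.1 and 500.7 for WT against 432.3 and 381.1 for KO. Hey1 was close between the genotypes, with 110.1 and 112.4 normalised read counts for WT against 149.4 and 144.4 for KO in ES, 326.6 and 275.6 against 414.7 and 404.5 at EB4, and 451.7 and 373.4 against 281.6 and 401.4 at EB5. Its KO values lay above WT in ES and at EB4 and below at EB8, where alone the test was passed.

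Hey2 ranged from 18.3 to 81.5 normalised read counts over the ES, EB4 and EB5 libraries of both genotypes, and Hes7 from 3.8 to 26.3. Heyl was at or below 4.8 in every ES and EB4 library and had 11.3 and 8.8 in WT EB5 against 27.5 and 1.9 in KO EB5. These genes gave no call before EB8, and the Heyl values of KO EB5 differed more between replicates than between genotypes.

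**Figure D3:**
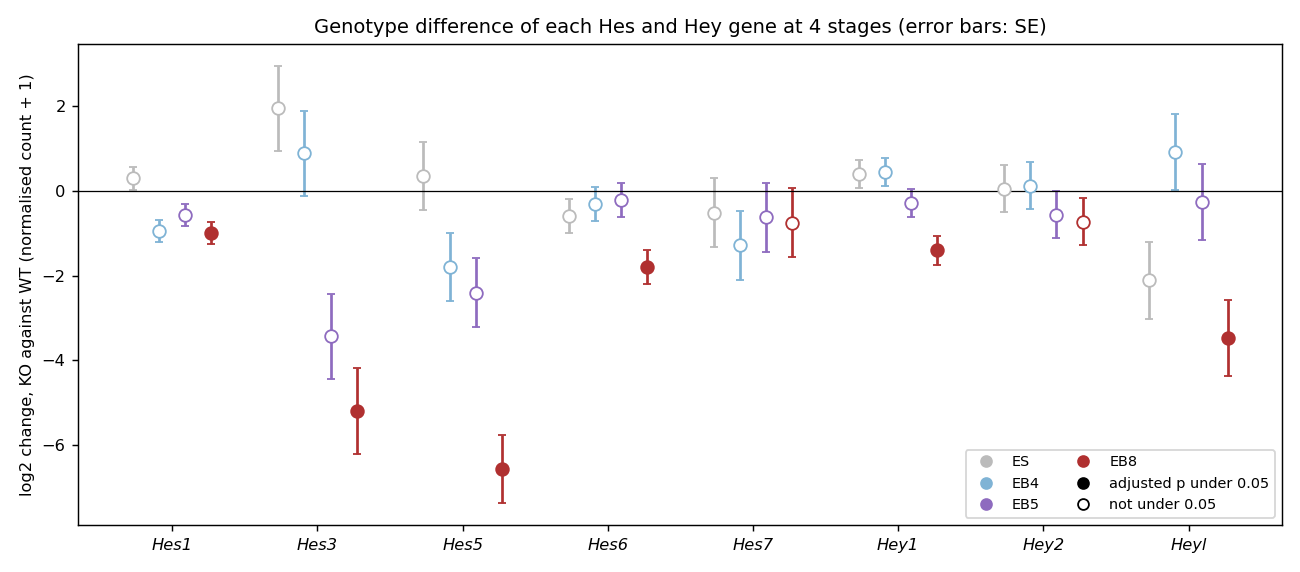
Log2 change of KO against WT, on the log2(normalised count + 1) scale, for each gene at ES, EB4, EB5 and EB8, with SE as error bars and filled points for a limma adjusted p under 0.05. Filled points occur only at EB8, for Hes1, Hes3, Hes5, Hes6, Hey1 and Heyl.

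The steps of differentiation within each genotype show when the genes rose. From ES to EB4 in WT, Hes1 rose 2.24-fold (log2 change 1.13, limma adjusted p = 0.0148) and Hey1 2.71-fold (1.42, adjusted p = 0.0147), 2 of 8 members where 8.98% of all genes rose and 16.5% were called. Neither call was kept in a fit of the compared groups alone or without WT EB4 replicate 1 (adjusted p = 0.106 for Hes1 and 0.0746 for Hey1), and the Hes1 call was also lost without WT ES replicate 2 (0.0625). In KO, Hey1 rose 2.79-fold over this step (log2 change 1.47, limma adjusted p = 0.0348), 1 of 8 members where 2.51% of all genes rose and 3.5% were called, and the call was lost when any of the 4 libraries was left out (adjusted p = 0.140 to 0.193). Hes1 in KO did not pass (log2 change -0.12, adjusted p = 0.855), but the difference between genotypes in this step was not called either (log2 -1.25, limma adjusted p = 0.543).

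From EB4 to EB5, the first day of retinoic acid, limma called 0 members in WT, where 3.73% of all genes were called, and 0 in KO, where 2.51% were. In WT, 3 members had an unadjusted p under 0.05, edgeR called 0 and DESeq2 called 1, which was Hes3, where 14.8% of all genes had such a p and DESeq2 called 6.92%. Its mean went from 3.28 to 60.7 normalised read counts (log2 change 3.81, limma adjusted p = 0.0600). In KO, no member had an unadjusted p under 0.05 (16.3% of all genes), and edgeR and DESeq2 called 0 (DESeq2 6.29% of all genes).

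From EB5 to EB8, the later days of retinoic acid, Hes5 rose 27.8-fold in WT (log2 change 4.74, SE 0.81, limma adjusted p = 0.00326) and Heyl 14.9-fold (3.76, SE 0.90, adjusted p = 0.0199), 2 of 8 members where 5.82% of all genes rose and 10.4% were called. The Hes5 call was kept when any of the 4 libraries was left out, and the Heyl call was lost each time (adjusted p = 0.0709 to 0.123). Hes6 had a mean of 472 normalised read counts in WT EB5 against 1181 in WT EB8 (log2 change 1.32, limma adjusted p = 0.0573, 0.0147 to 0.0850 over the alternatives that keep all libraries). In KO, 0 members were called over this step, where 0.738% of all genes were, with 1 at an unadjusted p under 0.05 (12.8% of all genes) and none by edgeR or DESeq2 (DESeq2 4.18% of all genes). The mean of Hes5 in KO was 8.08 normalised read counts at EB5 and 10.0 at EB8.

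Whether a step differed between the genotypes was tested by interaction terms. Over the steps from ES to EB4, EB4 to EB5 and EB5 to EB8, limma and edgeR called 0 of the 8 members, with 2, 1 and 4 at an unadjusted p under 0.05, and DESeq2 called 0, 0 and 1. Of all genes, limma called 0%, 0% and 0.781% and DESeq2 0.702%, 0.0248% and 3.03%, with 7%, 2.96% and 9.72% at an unadjusted p under 0.05. The member called by DESeq2 was Hes5 in the last step, where its rise was lower in KO by a log2 difference of -4.16 (SE 1.14, limma adjusted p = 0.147, 0.000467 to 0.230 over the alternatives that keep all libraries). With a pseudocount of 5 in place of 1, limma also called it (log2 difference -4.29, adjusted p = 0.0112), so that whether the genotypes differ in the rise of Hes5 depended on the setting.

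The other genes of the pathway were taken as lists of 51 genes, 47 of them tested. At EB8, 23 of the 47 were lower in KO and 2 higher, with a median log2 change of -0.86 (-0.03 over all genes, of which 12.5% were lower and 10.4% higher). List genes high mainly in WT EB8 can pass the filter through that group, so that this count is not independent of the differences. On the sending cell, 3 of 5 ligands were lower. Dll1 had 1762.1 and 1301.2 normalised read counts in WT against 144.5 and 130 in KO (log2 difference -3.46, limma adjusted p = 0.000134), and Dll3, which acts within the cell and dampens Notch, 884.2 and 1027 in WT against 69.6 and 22.4 in KO (-4.55, adjusted p = 0.000716). Jag1 was lower (log2 change -1.99), whereas Dll4 and Jag2 overlapped between the genotypes.

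On the receiving cell, 2 of 4 receptors were lower, Notch1 (log2 change -1.35, limma adjusted p = 0.00313) and Notch3 (-1.20, adjusted p = 0.000514), while Notch2 (0.30) and Notch4 (-0.43) were not called. Of the Fringe enzymes, which add sugars to Notch and tune its choice of ligand, Lfng (-1.92) and Mfng (-2.34) were lower and Rfng (0.01) was not called. Inside the cell, 5 of 8 genes were lower, among them the Notch target Nrarp, with 1730.6 and 1341.5 normalised read counts in WT against 130.8 and 155.5 in KO (log2 difference -3.41, limma adjusted p = 0.000252). Rbpj itself had 5029 and 5494 normalised read counts in WT against 6231.2 and 6369.1 in KO (0.26, adjusted p = 0.328). Of the 9 genes for receptor cleavage, Aph1a was lower (-0.56) and Psen2 higher (0.96), with a median log2 change of -0.12.

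Downstream, the genes of the Groucho family were mixed, with Tle1 (log2 change -1.14) and Aes (-0.86) lower and Tle2 higher (1.82, limma adjusted p = 0.0127) among 5. All 4 tested proneural genes of the list were lower in KO at EB8. These 4 also rose from EB5 to EB8 in WT (median log2 change 6.83), and the mean used by the filter takes in WT EB8. Apart from Neurod1, which averaged 431 normalised read counts in WT ES, their place among the tested genes may thus rest on that group. Neurog2 had 830.6 and 552.7 normalised read counts in WT against 5.3 and 2.1 in KO (log2 difference -7.26, limma adjusted p = 0.000452). Neurog1 (-4.53), Neurod1 (-5.30) and Neurod4 (-7.65) completed the list, and Neurog3 and Atoh1 were under the filter. Of the Id genes, inhibitors of helix-loop-helix proteins, Id2 (-1.62) and Id4 (-2.23) were lower among 4, and of the E proteins, their common partners, Tcf4 (-1.67) and Tcf12 (-1.02) among 3. The related repressors Bhlhe40 and Bhlhe41 overlapped between the genotypes, and Hes2 and Helt were under the filter.

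**Figure D4:**
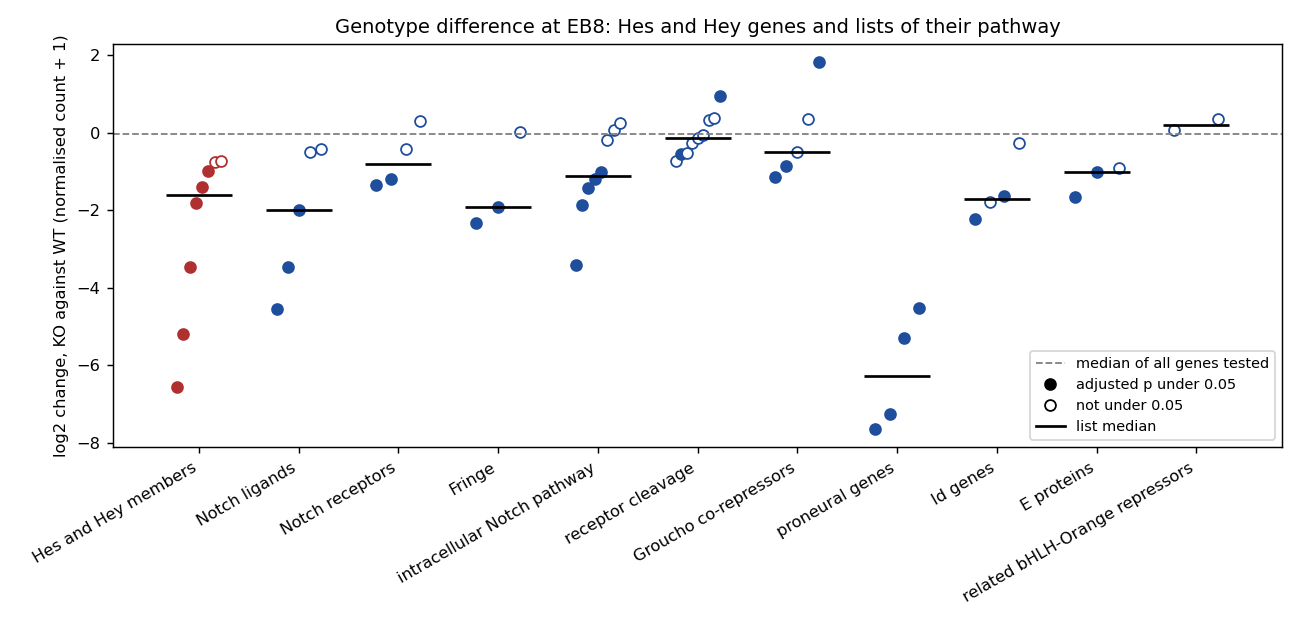
Log2 change of KO against WT at EB8 for the 8 Hes and Hey genes (red) and 47 genes of 10 pathway lists (blue), filled where the limma adjusted p is under 0.05, with list medians as bars and the median of all genes as a dashed line. The proneural list has the lowest median, and the receptor cleavage list is centred near the line.

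Earlier in differentiation the lists changed less. At EB4, 4 of the 47 genes were lower in KO (Notch2, Notch3, Maml3 and Mib1) and 3 higher, which were Rbpj (log2 change 1.04, limma adjusted p = 0.0110), Adam17 (0.55) and Id4 (1.58). Of all genes 3.37% were lower and 2.75% higher at EB4. DESeq2 called 17 of the 47 at EB4 (13.4% of all genes), and 20 had an unadjusted limma p under 0.05 (22.7% of all genes). At EB5, Notch3 (-0.95, limma adjusted p = 0.0139) and Tcf4 (-0.90) were lower, 2 of 47 where 2.17% of all genes were lower and 4.34% were called in either direction, and none was higher. DESeq2 called 11 of the 47 at EB5 (10.7% of all genes), and 13 had an unadjusted limma p under 0.05 (20.7% of all genes). In ES cells limma and edgeR called 0 and DESeq2 called 1, with 7 at an unadjusted p under 0.05 (2.97% and 11.4% of all genes). Notch3 was lower in KO at each of the 3 EB stages. Its ES values did not overlap either, with 3810 and 4064.6 normalised read counts in WT against 2109.4 and 2490.8 in KO (log2 difference -0.78, limma adjusted p = 0.112). The stages were sampled from the same ES lines, so that the Notch3 differences are not independent of each other.

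Likeness between expression patterns was described by Pearson's r of log2(normalised count + 1) over the 16 libraries, which share their groups and depths, so that no test is attached. Within the family Hes5 and Heyl were the most alike (0.83), followed by Hes1 and Hes5 (0.76), and Hes6 and Hey1 the least (-0.16). Of all genes tested, the most like Hes5 were Nova1 (0.98), Celsr2 (0.97) and 5730403B10Rik (0.96). Hes6 was most like the proneural gene Neurod1 (0.91), then Cs (0.87) and Sfswap (0.87). Hes1 was most like Hnrnpul1 (0.94), Srrm3 (0.92) and Dbp (0.92), Hey1 most like Stil (0.93), Zfp157 (0.91) and Ift140 (0.90), and Heyl most like Igfbp4 (0.94), Cldn8 (0.94) and Zfp663 (0.94). The low genes had weaker neighbours, with Rfc3, Epb4.1l4a and Gm16119 for Hes3 (0.81, 0.81 and 0.80), Atg9a, Ier5l and Rell2 for Hes7 (0.83, 0.83 and 0.82) and Smc5, Ptpla and Cenpf for Hey2 (0.77, 0.76 and 0.76).

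Over the 8 groups the members differed in range. Heyl, with 149 normalised read counts in WT EB8 against 0.357 in KO ES, and Hes5, with 956 in WT EB8 against 1.81 in KO EB4, spanned the widest range of group means apart from Hes3, which was at 0 in KO EB8. The lowest of these groups lie at or under the floor of 3 reads, and no fold is given. Hes1, Hes6, Hey1, Hey2 and Hes7 spanned 2.58-fold, 3.75-fold, 5.35-fold, 2.45-fold and 4.36-fold. Ordered by group mean, WT EB8 was highest and did not overlap the next group for Hes5, Hey1 and Heyl. For Hey1 the margin was small, with 466.3 in WT EB8 replicate 1 against 451.7 in WT EB5 replicate 1. That step was not called (limma adjusted p = 0.402). Hes6 in WT EB8 was clear of KO ES below it but overlapped WT ES above it. The share of all genes arranged in this way was not computed. For Hes1 the neighbouring groups overlapped at every place in the order, as they did for Hes7.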

How the data were processed

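Poly-A RNA of 16 libraries (8 groups of 2, from genotype and stage in the titles) was sequenced single-end with a kit that does not mark strand. Per the submitters' processing notes and the published methods, the authors used CASAVA 1.7 and 1.8, aligned reads with TopHat2 2.0.10 to mm9 (NCBI37), counted with HTSeq 0.5.4p3 and normalised with DESeq2 1.0.19; the use of strand is not given in the sources used here. The deposited values are a normalised signal, the read count of a gene divided by a size factor. In each library 100% of values were whole multiples of a step of 0.715 to 1.28 (tolerance 0.01), which gave whole reads, and 3 reads were taken as the floor. Floors cover counting error only.

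Exons and positions are from GENCODE M1 on NCBI37 (27603 identifiers found, 204 not). The main test was limma 3.58.1 (eBayes with trend, R 4.3.3) on log2(normalised count + 1), with 8 group means over 16 libraries (8 residual degrees of freedom) and Benjamini-Hochberg adjustment over 16124 genes with a mean of at least 10. This scale understates changes of low genes. The threshold was an adjusted p of 0.05. edgeR 4.0.16 and DESeq2 1.42.0 on the recovered reads were alternatives, and the steps were tested on simulated data. Labels do not say whether replicates were separate cultures, so p-values measure the spread between libraries. Named genes are the 8 members, the pathway lists (up to 4 per list with values) and the 3 genes most correlated with each member. Members and lists were chosen with earlier results of these data known. One gene of a pathway list is not reported here, and the counts leave it out. Python 3.11.15 ran the remaining steps.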

Additional observations from a re-analysis of the deposited data

How the results depend on the processing

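At EB8 the count of members lower in KO was 4 to 6 under 10 alternatives that keep all libraries (4 with a mean of at least 50, which removes Hes3, Hes7, Hey2 and Heyl from the test) and 3 to 5 when a library was left out, with 3 without WT EB8 replicate 2 or KO EB8 replicate 1. Hes3, Hes5 and Hes6 kept their call under each of these alternatives in which they were tested. Hes7, never called, ran from a log2 change of -1.88 without KO EB8 replicate 1 to 0.37 without KO EB8 replicate 2. Between genotypes at EB4 the count of 0 became 1 with DESeq2, and at EB5 it became 1 with quantile normalisation and 2 with DESeq2, and lay between 0 and 1 when a library was left out (1 without KO EB5 replicate 1). From ES to EB4 in WT the count of 2 became 0 in a fit of the compared groups only and 0 to 2 when a library was left out. From ES to EB4 in KO the count of 1 became 0 with no filter, with quantile normalisation, in a fit of the compared groups only, and when any library was left out. From EB4 to EB5 in WT the count of 0 became 1 with DESeq2. From EB5 to EB8 in WT the count of 2 became 1 with a mean of at least 50 and when any library was left out. Hes6 was added to the calls over EB5 to EB8 in WT, making 3, under further alternatives. These were quantile normalisation (limma adjusted p = 0.0494), a fit of the compared groups only (limma, 0.0171) and DESeq2 (0.0147). The interaction over EB5 to EB8 went from 0 to 1 with a pseudocount of 5 and with DESeq2, for Hes5 each time. The causes were not tested. Upper-quartile rescaling moved the median of all genes at EB8 to 0.11 and the split of all calls to 2278 higher and 1615 lower (main 1677 and 2020; quantile normalisation 2216 and 1854), and the 6 called members stayed lower and called. Over all genes, calls between genotypes at ES, EB4, EB5 and EB8 were 0, 986, 700 and 3697, against 0, 811, 603 and 3546 with edgeR. The first 3 became 469, 2077 and 1719 with DESeq2, 0, 0 and 72 in a fit of the compared groups only and 1, 609 and 447 with no filter, and ES gave 16 to 19 with upper-quartile rescaling, the replicate block, either other pseudocount or the stricter filter. Leaving out a library gave 0 to 121 calls at ES, 0 to 753 at EB4, 0 to 525 at EB5 and 1907 to 2408 at EB8. The KO steps from ES, EB4 and EB5 had 564, 405 and 119 calls, against 1668, 1015 and 661 with DESeq2 and 23, 91 and 1 in a fit of the compared groups only, which in WT took the steps from ES and EB4 from 2668 and 601 to 0 and 170. Leaving out a library took the KO step from ES to 2 to 81 calls and the interaction over EB5 to EB8 from 126 to 13 to 74 (488 with DESeq2), and the block took the KO steps from ES and EB5 to 1291 and 299. Of 560 counts over the pathway lists, 498 stayed within 1.5 times.

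The replicate number was fitted as a block, although the labels do not say that it marks a shared line or culture. In KO the chromosome 11 level followed this number, at 0.18 to 0.27 in replicate 1 of every stage against -0.08 to -0.01 in replicate 2. Whether the number marks a line was not tested. With the block the count of members was 1 at EB4 (Hes1, adjusted p = 0.0451) and 1 from EB4 to EB5 in WT (Hes3, 0.0131), and from EB5 to EB8 in WT it rose from 2 to 3 with Hes6 (0.0327). No other count of members was moved by over 1.5 times. Differences between replicates of same-numbered libraries correlated, across genes, at 0.33 between the genotypes in ES, -0.06 at EB4, -0.21 at EB5 and -0.13 at EB8, and within genotypes at -0.08, 0.61 and 0.57 over the WT steps and 0.39, 0.42 and 0.23 over the KO steps. Depth limits Hes3, Hes5, Hes7 and Heyl, which had under 30 reads in both libraries of most groups.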
